A study of Homo sapiens with 12 samples.

Results

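Microtubule-associated and growth cone genes were followed through every comparison that the study deposited on cortical neurons after loss of TDP-43. The 10 genes were chosen by symbol for what they encode: MAPT, MAP2, MAP1A, MAP1B, DCX, DPYSL2, DPYSL3, CRMP1, GAP43 and TUBB3. Of these, 5 were listed in at least one of the 5 tables of comparisons, which name 4719 genes in all. The neurons came from WA01 (an established line of human embryonic stem cells) and were driven to differentiate by overexpressing NGN2, a neurogenic transcription factor. One set received a short hairpin RNA against TDP-43 for 7 days and the other a scrambled hairpin for 7 days, and apart from the hairpin both share the cell line and the NGN2 differentiation. Of the 12 libraries, 6 were RNA-seq of stranded total RNA and 6 were 3' end-seq (QuantSeq REV, which reads the ends of transcripts), with 3 TDP-43 shRNA and 3 scrambled shRNA libraries in each assay. All come from a single line, and the labels do not say whether replicates were separate cultures. The spread behind the authors' p-values may therefore be technical.

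Microtubules are polymers of tubulin that carry transport in the axon and dendrites, and the proteins bound along them set how stable and how closely packed they are. MAPT encodes tau, found mainly in axons, and MAP2 a relative of tau found mainly in dendrites; both bind microtubules through similar repeats near the carboxyl end. MAP1A and MAP1B encode large microtubule-binding proteins of mature and growing neurites, DCX encodes doublecortin of migrating neurons, and TUBB3 the neuronal class of beta-tubulin. DPYSL2, DPYSL3 and CRMP1 encode collapsin response mediator proteins, which bind tubulin and act in growth cone turning, and GAP43 a membrane protein of the growth cone. TDP-43, encoded by TARDBP, is a nuclear RNA-binding protein with a preference for UG-rich RNA, and tau and TDP-43 each form aggregates in forms of frontotemporal dementia.

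The tables hold the authors' own comparisons and list changed items only, at an adjusted p of up to 0.05 where one is given. With no value per library, the depth is unknown and the spread between replicates cannot be shown. Expression of the 10 genes, the level of TARDBP and the markers of neurons were not analysed here, because the columns of the gene table are not tied to samples by any label. Splicing was given as introns grouped into clusters of overlapping introns, with a change in each intron's share of its cluster and 1 adjusted p per cluster; single introns have no p. The changes within a cluster must offset one another, so a rise in 1 intron and a fall in its neighbours are not separate observations. The group subtracted is not stated. Positive values were read as higher in TDP-43 shRNA neurons because of STMN2: in the authors' deposited tables its junction from 79611214 to 79616822 changed by 44.9 percentage points, and the polyadenylation site 226 nt past that junction had a usage of 39.0% in TDP-43 shRNA neurons and 0.0207% in scrambled shRNA neurons.

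The start regions of MAP2 and GAP43 are shown because several of the listed introns begin just past them. The windows come from RefSeq (GRCh38.p14), lie on the plus strand and run from 250 bases before an annotated transcript start to 50 bases from that start on. Capitals mark each TGTGTG or CACACA, searched on the printed strand, so that CACACA is TGTGTG on the other strand; overlapping matches run together. RefSeq windows were at hand for 8 of the 10 genes (19 windows) and not for MAPT and DPYSL2.
MAP2 start at 209579332, chr2:209579082-209579381: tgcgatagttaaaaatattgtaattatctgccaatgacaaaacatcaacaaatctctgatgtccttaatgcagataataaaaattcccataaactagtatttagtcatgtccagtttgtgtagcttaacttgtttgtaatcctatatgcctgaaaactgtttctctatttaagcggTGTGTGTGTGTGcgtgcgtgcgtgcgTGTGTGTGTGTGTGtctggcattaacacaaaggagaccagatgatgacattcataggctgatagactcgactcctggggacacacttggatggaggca
MAP2 start at 209579607, chr2:209579357-209579656: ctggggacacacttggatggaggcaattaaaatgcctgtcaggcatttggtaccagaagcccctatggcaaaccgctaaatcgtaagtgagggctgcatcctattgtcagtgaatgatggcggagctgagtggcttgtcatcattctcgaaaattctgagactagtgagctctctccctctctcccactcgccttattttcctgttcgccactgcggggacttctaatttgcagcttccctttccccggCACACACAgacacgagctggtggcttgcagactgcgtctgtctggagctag
MAP2 start at 209661496, chr2:209661246-209661545: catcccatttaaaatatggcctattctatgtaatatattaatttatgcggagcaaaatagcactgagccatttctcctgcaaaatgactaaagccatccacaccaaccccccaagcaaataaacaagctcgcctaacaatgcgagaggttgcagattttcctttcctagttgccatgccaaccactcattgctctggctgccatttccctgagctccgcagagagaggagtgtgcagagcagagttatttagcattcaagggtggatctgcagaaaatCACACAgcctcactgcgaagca
GAP43 start at 115623510, chr3:115623260-115623559: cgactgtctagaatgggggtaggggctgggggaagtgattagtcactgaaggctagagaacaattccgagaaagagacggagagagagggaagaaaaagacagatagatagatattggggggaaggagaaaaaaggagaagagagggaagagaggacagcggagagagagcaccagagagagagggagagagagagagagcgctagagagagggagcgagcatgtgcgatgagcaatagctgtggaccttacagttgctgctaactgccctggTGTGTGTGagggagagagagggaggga

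TG repeats were present in some of these windows. The MAP2 window of the start at 209579332 held 9 overlapping matches of TGTGTG, in a pair of runs before the start, and the GAP43 window held 2, just after its start. The other MAP2 windows held CACACA and no TGTGTG, with 2 matches at the start at 209579607 and 1 at 209661496. Among 35116 RefSeq windows of the same length, 9.36% held TGTGTG, 8.76% held CACACA and 17.2% held at least one of them. A match describes the letters and not a bound site, and binding was not measured.

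Splicing was the only process for which any of the 10 genes was listed. MAPT, MAP2, DCX, DPYSL2 and GAP43 had 9 listed clusters between them, with 4 for MAP2, 2 for DCX and 1 for each of the others. That is 5 of 10 genes, against 11.2% of the 20056 RefSeq protein-coding genes that were named in the splicing tables. No gene of the 10 was named among the polyadenylation changes by 3' end-seq (0 of 10, against 9.47% of RefSeq protein-coding genes), among those by RNA-seq (0 of 10, against 4.07%) or among the cryptic polyadenylation sites (0 of 10, against 1.94%). The number of genes the authors tested is not known, and the 10 genes were chosen with earlier results of these data known. These shares are therefore a description of the lists.

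The changes in the 5 genes were smaller than the median of the listed clusters. The largest change of an intron share was between 0.4 and 3.5 percentage points in the 9 clusters, with a median of 2.9 points, while the median over all 2994 listed clusters was 6.4 points. A change of at least 10 points was reached by 0 of the 9 clusters and by 33% of all listed clusters. MAP2 was among the 20 genes with 4 or more listed clusters (0.83% of the 2410 genes with a named cluster). By adjusted p, the GAP43 cluster stood at rank 50 of 2994 (2.42e-09) and the leading MAP2 cluster at rank 157 (2.66e-06) in the authors' deposited table. The MAPT cluster stood near the end of that list at rank 2965, with an adjusted p of 0.049.

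**Figure D1:**
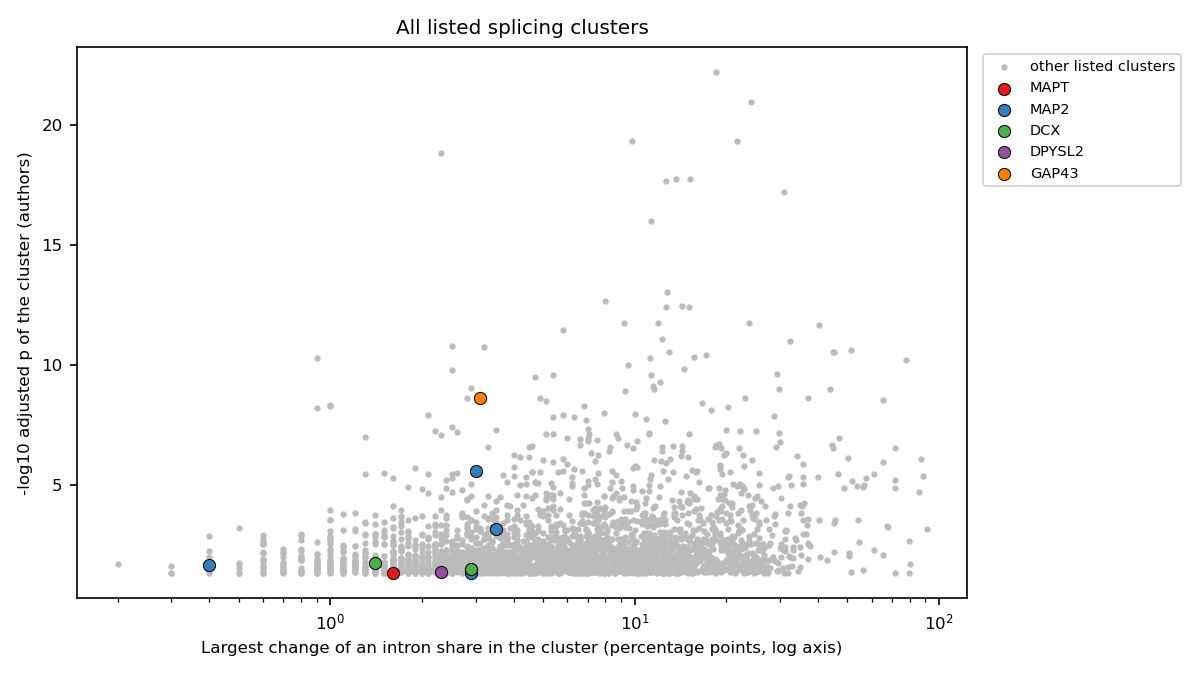
Each point is 1 of the 2994 listed splicing clusters, with its largest change of an intron share in percentage points on a log axis and −log10 of the authors' adjusted p. The 9 clusters of MAPT, MAP2, DCX, DPYSL2 and GAP43 are coloured, and all lie at or below 3.5 points, with GAP43 the highest of the 9 on the vertical axis.

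In MAPT the junction that leaves out the exon of the second microtubule-binding repeat took a slightly larger share in TDP-43 shRNA neurons. The gene lies at 45894554 to 46028334 on chromosome 17 (hg38). The skipping intron, from 45996664 to 46014243, changed by 1.6 points in the authors' deposited table. The introns on either side of the exon changed by -0.5 points (45996664 to 46010310) and -1.1 points (46010402 to 46014243) in the authors' deposited table. All 3 are annotated junctions, and the piece between the flanking introns is 93 nt long, or 31 codons with no base left over. Tau with and without this repeat is known as 4-repeat and 3-repeat tau, and mutations that shift the balance cause familial frontotemporal dementia. The adjusted p of 0.049 was close to the authors' limit.

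MAP2 had changes in introns near annotated starts and around its large central exons. The gene runs from 209424047 to 209734112 on chromosome 2, and its clusters are numbered here from the 5' end. In the first cluster, at the far 5' end, the annotated intron from 209579755 to 209580036 changed by -2.9 points in the authors' deposited table (adjusted p 0.047). That intron begins 148 nt past the annotated start at 209579607, whose window is printed above. The other 4 introns of the cluster had positive values: 1 point each for 209424276 to 209507592 and for 209579438 to 209580036, 0.6 points for 209507641 to 209580036 and 0.2 points for 209424276 to 209580036. The intron from 209579438 has an unannotated 5' splice site and begins 106 nt past the start at 209579332, the one with the TG repeats shown above. The annotated intron from 209579755, with the negative value, begins 423 nt past that same start.

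The second MAP2 cluster held the largest change of the 9 listed clusters. An intron from 209661678 to 209678572 with an unannotated 5' splice site changed by 3.5 points in the authors' deposited table, and the annotated intron from 209653432 to the same 3' splice site by -3.5 points (adjusted p 0.000734). The first of these begins 182 nt past the annotated RefSeq start at 209661496, whose window is printed above. The tables do not say whether transcripts with this junction began at that start.

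The third MAP2 cluster covered the region that separates the long and short forms of the protein. MAP2A and MAP2B are high-molecular-weight forms, and MAP2C is a short form of developing neurons that lacks a large central stretch. The annotated intron from 209680827 to 209700277, which passes over that region in 1 step, changed by 3.0 points in the authors' deposited table (adjusted p 2.66e-06). Introns that enter the region at its first large piece changed by -1.3 points (to 209692637, an unannotated 3' splice site) and 0 points (to the annotated site at 209692625). A new pair of annotated sites, from 209680827 to 209696542, skips that first piece and enters at the next, and it changed by -0.9 points. The annotated intron out of the region, from 209697051 to 209700277, changed by -1.2 points. Between the listed junctions lie pieces of 3726 nt and 510 nt, both whole numbers of codons (1242 and 170). The first is counted from the annotated site at 209692625. From the unannotated site at 209692637 it is 3714 nt, or 1238 codons. The unannotated 3' splice site 3 nt farther on, at 209700280, changed by 0.4 points when joined to 209680827 and by -0.1 points when joined to 209697051. The tables name no isoform, so the position of the junction does not show whether its transcripts encode MAP2C.

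The fourth MAP2 cluster changed least of the 9. Its intron to an unannotated 3' splice site at 209703987 changed by 0.4 points in the authors' deposited table (adjusted p 0.0234). The annotated intron from 209700338 to 209705580, which passes over the pieces between the cluster's other introns, changed by -0.4 points. The other 3 introns were given as 0. Values are rounded to 0.1 point, so such changes span only a few rounding steps.

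**Figure D2:**
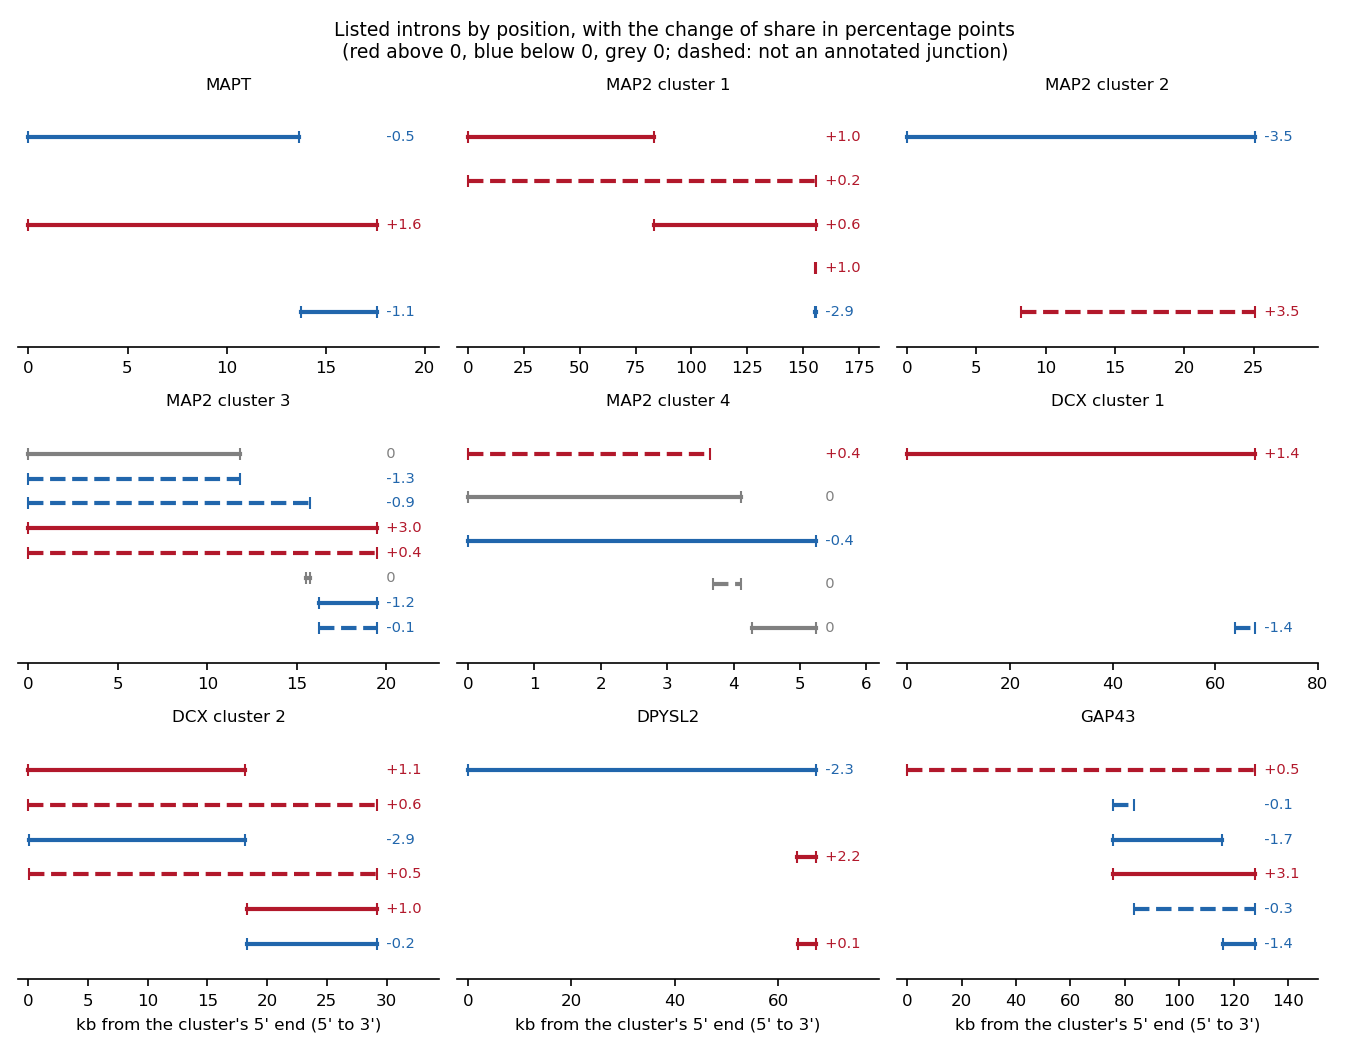
Each panel is 1 of the 9 clusters, with its listed introns drawn by distance in kb from the cluster's 5' end, in the direction of transcription, and the change of share in percentage points at the right. In MAPT, the third MAP2 cluster and GAP43, the longest annotated intron has a positive value (1.6, 3.0 and 3.1) and the other annotated introns, which lie inside it, have values of 0 or below. In the fourth MAP2 cluster the longest annotated intron has a negative value (-0.4) and the other annotated introns have 0. In DPYSL2 the longest has -2.3 and the others have 2.2 and 0.1.

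GAP43 had the smallest adjusted p of the 5 listed genes and, as in MAPT, a positive value for a junction that skips an annotated piece. The annotated intron from 115623719 to 115676013 on chromosome 3 changed by 3.1 points in the authors' deposited table (adjusted p 2.42e-09). The annotated introns into and out of the exon that it skips changed by -1.7 points (115623719 to 115663521) and -1.4 points (115663916 to 115676013). The skipped piece is 396 nt long, a multiple of 3, and whether it is coding was not tested. A second piece, of 64 nt, is bounded by unannotated sites at 115631249 and 115631312, and its introns had values of -0.1 and -0.3 points in that table. All introns from 115623719 begin 209 nt past the RefSeq start whose window is printed above. The sixth intron begins at 115547951, an unannotated 5' splice site 75559 nt upstream of the RefSeq start, and changed by 0.5 points.

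DCX lies on chromosome X, minus strand, and had 2 clusters. In the 5' cluster, an annotated intron from 111400990 down to 111333153 changed by 1.4 points, and an intron with an unannotated 5' splice site at 111337194 by -1.4 points, in the authors' deposited table (adjusted p 0.0178). This is the reverse of the second MAP2 cluster, where the unannotated site had the positive value. In the 3' cluster (adjusted p 0.0317), a pair of annotated 5' splice sites 15 nt apart differed in sign: the intron from 111330904 to 111312736 changed by -2.9 points and the one from 111330919 to 111312736 by 1.1 points. Of the introns that follow, which share the 3' splice site at 111301743, those from a second pair of annotated 5' splice sites 3 nt apart changed by 1.0 points at 111312642 and -0.2 points at 111312639. New pairings that pass over the exon between, 95 or 98 nt long, had values of 0.5 and 0.6 points in that table of the authors.

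DPYSL2 had 1 cluster, of 3 annotated introns that share a 3' splice site and differ in where they begin. The annotated intron from 26514679, which begins 648 nt past the start of the RefSeq gene on chromosome 8, changed by -2.3 points in the authors' deposited table (adjusted p 0.0457). An annotated intron from 26578293 to the same 3' splice site at 26581969, which begins 64262 nt past the RefSeq start, changed by 2.2 points. The third, from 26578533, changed by 0.1 points. DPYSL2 is known to make a long and a short form of CRMP2 from different first exons, but the tables give no transcript start or exon, so whether these introns follow first exons was not tested.

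MAP1A, MAP1B, DPYSL3, CRMP1 and TUBB3 were in none of the 5 tables. MAP1B and TUBB3 are abundant proteins of young neurons, and DPYSL3 and CRMP1 are paralogs of DPYSL2. A gene outside the lists may have been tested without passing or may not have been tested, so no value or bound can be given for these 5 genes.

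Among themselves, the listed introns showed no common direction for unannotated sites. Of 40 introns in the 9 clusters, 18 had positive values, 17 negative and 5 were given as 0. The changes within each cluster summed to between -0.1 and 0.1 points, so values of both signs are built into the measure. Introns with an unannotated splice site numbered 11, of which 5 were positive, 5 negative and 1 was 0, against 51.4% positive among the 6391 such introns of all listed clusters. The authors labelled 7 of the 9 clusters cryptic, all but those of MAPT and DPYSL2, against 88.8% of all listed clusters. The 3' cluster of DCX carries that label although its listed introns join annotated sites only, some in new pairs. Introns that pass over a piece lying between other introns of their cluster numbered 13, and 8 of them (61.5%) were positive, against 49.8% of the 5609 such introns in all listed clusters. The median was 0.4 points for the 13 and 0 points for the 5609. The 13 introns share splice sites and clusters, so they are not independent, and this grouping was made after the values were seen.

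**Figure D3:**
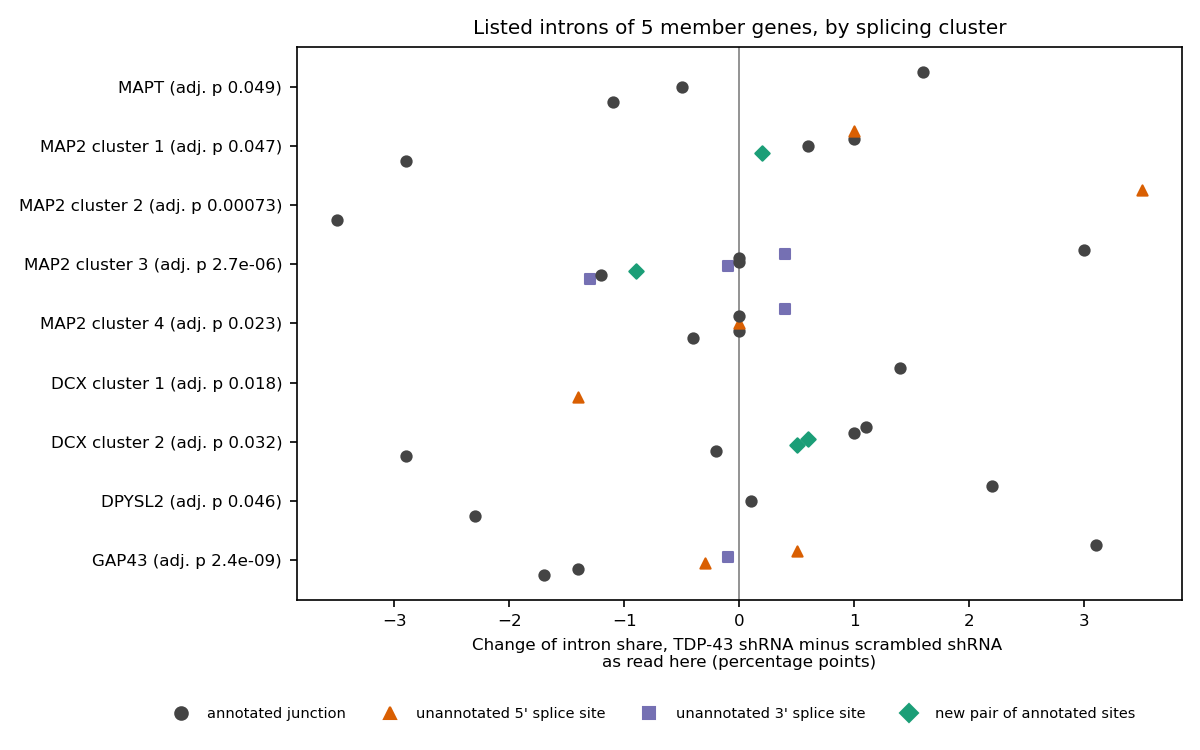
Each point is 1 of the 40 listed introns of MAPT, MAP2, DCX, DPYSL2 and GAP43, by cluster (rows, with the authors' adjusted p), with the change of its share in percentage points on the horizontal axis and its junction class as colour and shape. Values lie between -3.5 and 3.5 points, and the only unannotated junction above 1 point is that of the second MAP2 cluster.

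A wider list of 90 microtubule and growth cone genes had members listed for polyadenylation in both assays. It was chosen by function with earlier results of these data known, and it includes STMN2, used above to set the sign. The shares of the 90 genes given here and below are therefore a description of the lists. By 3' end-seq 16 of the 90 were listed, against 9.47% of RefSeq protein-coding genes. Of the 16, 13 were longer and 3 shorter, where 84.7% of all 2220 genes listed were longer. AGBL5, a deglutamylase of tubulin, had a change in usage index of 0.404, FYN, a kinase that binds tau, 0.341 and DCLK3, a doublecortin-like kinase gene, 0.335 in the authors' deposited table, next to MARK3 at 0.425. STMN2 (-0.391), the semaphorin receptor gene PLXNA2 (-0.223) and its ligand family member SEMA3A (-0.128) were shorter in the authors' deposited table. By RNA-seq 11 of the 90 were listed, against 4.07% of RefSeq protein-coding genes. Of the 11, 10 were distal and 1 proximal, where 95% of all listed genes were distal. TTBK1, a tau kinase gene, led at 1.46, ahead of TTLL1 of tubulin glutamylation at 1.32, FYN at 0.896 and CDK5, another tau kinase gene, at 0.698 in the authors' deposited table; ROBO1 (-1.25) was proximal. The scales of the indices are not stated and differ between the assays.

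Cryptic polyadenylation sites were listed for 4 of the 90 genes, against 1.94% of RefSeq protein-coding genes. DPYSL5, a further member of the collapsin response mediator family, had a site past its 3'UTR at 26951292 on chromosome 2 with a usage of 51.3% in TDP-43 shRNA neurons and 3.96% in scrambled shRNA neurons in the authors' deposited table. MARK1, a kinase of tau and MAP2, had an intronic site with 21.4% in TDP-43 shRNA neurons and 3.18% in scrambled shRNA neurons. PLXNA1 had a site past its 3'UTR with 12.1% in TDP-43 shRNA neurons and 1.08% in scrambled shRNA neurons, and the fourth gene was STMN2. There is 1 value per group, so no replicate check is possible, and the table holds only sites that the authors called cryptic.

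Splicing clusters were listed for 29 of the 90 genes (49 clusters), against 11.2% of RefSeq protein-coding genes. Of the 49 clusters 10 reached a change of at least 10 points, a lower share than the 33% of all listed clusters. Apart from STMN2, the largest positive values were those of DCLK2, a doublecortin-like kinase gene, at 30.2 points, MAP6, which encodes a stabilizer of cold-resistant microtubules, at 19.2 and NCAM1, a neural adhesion molecule gene, at 15.2 in the authors' deposited table. The largest negative values apart from STMN2 were those of an annotated MAP6 intron at -31.0 points (adjusted p 6.66e-18), a DCLK2 intron at -23.4 and a ROBO2 intron at -15.9 in the authors' deposited table. STMN2 led in both directions with 54.2 and -54.2 points, in a cluster given on the strand opposite to the gene. In all, 48 of the 90 genes were in none of the tables.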

How the data were processed

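RNA-seq and 3' end-seq libraries of TDP-43 shRNA and scrambled shRNA neurons were compared by the authors; per the submitters' processing notes the build was hg38 and the tools included STAR, Salmon, SAMtools, fastp and DESeq2, with no roles stated. The deposited splicing lists carry the name of leafcutter, and the sources used here do not name the caller behind the other lists. The changes of the usage index and of intron share are deposited scores; intron shares were rounded by the authors and are printed here in percentage points. The adjusted p-values are those the authors deposited, 1 per gene or cluster. For cryptic sites the authors deposited 1 usage fraction for each group, given here as a percent. The number of introns per cluster is the authors'. Depth is unknown.

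The 6 per-sample columns of the gene table were left out, since no label ties its numbered columns to samples, and setting the groups by the level of TARDBP would define them by an outcome. The planned tests of expression were therefore not run. The members and lists were chosen with earlier results of these data known. All 10 genes are named; of the wider list, up to 4 per table and direction with the largest change.

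Genes were matched by symbol, and checked by older symbol, Ensembl identifier and position in RefSeq genes (GRCh38.p14). Junction positions were taken as the flanking exon bases. The functions for exon lengths, overlap, nearby sites and motif matches were tested on simulated data. No test was computed. Python 3.11.15, pandas 2.3.3, numpy 2.4.6 and matplotlib 3.10.9 were used.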

Additional observations from a re-analysis of the deposited data

How the results depend on the processing

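The count of 5 genes with a listed splicing cluster depends on the limit. At a cluster adjusted p of up to 0.01 it was 2 (MAP2 and GAP43), at a largest change of at least 10 points it was 0, and at 3 points, a limit chosen after seeing the data, it was 2. Matching by position in the RefSeq gene gave the same 5 genes. The counts of 0 for 3' end-seq polyadenylation, RNA-seq polyadenylation and cryptic sites stayed 0 when older symbols were also matched. For 3' end-seq, Ensembl identifiers were matched as well. Stricter limits of adjusted p, change or usage can only keep a count of 0, so those runs could not have moved it. No paired analysis was possible because the values are the authors' comparisons, with no value per library. For the same reason the alternatives for expression (pseudocount, low-value filter, leaving out a replicate, replicate block) were not run. Depth is unknown and limits what an absence from a list can show.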
